A study of Mus musculus with 6 samples.

Results

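Oxidative phosphorylation genes encode the respiratory chain complexes I to IV and the ATP synthase, complex V. They were taken from the gene table by name and not by their values. Protein-coding rows were kept when the symbol starts with mt-Nd, mt-Co, mt-Cyb, mt-Atp, Ndufa, Ndufb, Ndufc, Ndufs, Ndufv, Uqcr, Cox4, Cox5, Cox6, Cox7, Cox8 or Atp5, or is Sdha, Sdhb, Sdhc or Sdhd. Their mean count over the 6 libraries also had to reach 10. This gave 99 of the 47062 rows, of which 13 are encoded in mitochondrial DNA and 86 in the nucleus. The table's gene for cytochrome b has the symbol mt-Cytb and was counted under mt-Cyb. RNA was measured in striatum, dissected with its subventricular zone, from littermate mice at postnatal day 0 on a mixed C57BL/6J, 129S6 and CD1 background. All mice carried Sp9Flox/Flox, alleles of the transcription factor gene Sp9 that Cre recombinase can delete. The 3 control libraries have this genotype alone, and the 3 mutant libraries also have Drd2-Cre, a Cre driven by the dopamine D2 receptor gene. No library has Drd2-Cre without floxed Sp9, so the deletion and Cre itself cannot be told apart. The tissue also holds the cells in which Drd2 is not active.

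The chain passes electrons from NADH (complex I) or succinate (complex II) through complexes III and IV to oxygen, and pumps protons across the inner mitochondrial membrane. Complex V uses the returning protons to make ATP. Complex II is wholly nuclear, while the other complexes combine a few subunits made inside mitochondria with many made in the cytosol, so that both genomes have to be expressed. Neurons rely on this pathway for most of their ATP, and mouse mitochondrial DNA is transcribed as long RNAs that are cut at the transfer RNAs between the genes.

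Some genes of the compact mitochondrial genome share bases, and these affect what a level means. In GRCm38, mt-Atp8 (chrM:7766-7969, plus strand, 204 bases) shares 43 bases with mt-Atp6, and mt-Nd4l (chrM:9877-10173, plus strand, 297 bases) shares 7 bases with mt-Nd4. Both are shown whole because they are the shortest of the 13, with the shared bases in capitals.
mt-Atp8: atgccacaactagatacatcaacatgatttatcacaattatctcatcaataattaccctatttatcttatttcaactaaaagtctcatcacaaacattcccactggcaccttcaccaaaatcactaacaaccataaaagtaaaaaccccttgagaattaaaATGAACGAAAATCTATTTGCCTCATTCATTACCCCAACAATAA
mt-Nd4l: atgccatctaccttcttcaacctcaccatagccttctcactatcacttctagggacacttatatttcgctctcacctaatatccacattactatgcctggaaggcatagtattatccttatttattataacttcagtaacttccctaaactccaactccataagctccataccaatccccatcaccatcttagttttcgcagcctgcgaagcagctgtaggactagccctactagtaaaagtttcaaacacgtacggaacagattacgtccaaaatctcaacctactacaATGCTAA
In each, the capitals open with the ATG of the following gene and close with the TAA stop of the printed one. Fragments from the shared stretch belong to either gene. No transfer RNA lies between the genes of either pair, so their levels may not be those of separate RNAs. On opposite strands, mt-Nd5 and mt-Nd6 share 14 bases, and mt-Nd6 is the only member on the minus strand of chrM, with 28.1% G and 6.0% C. Translation starts at ATG in 9 of the 13 genes, at GTG in mt-Nd1, ATA in mt-Nd2, ATT in mt-Nd3 and ATC in mt-Nd5. The annotated end of mt-Co3, mt-Nd4 and mt-Cytb is a lone T, which the poly(A) tail completes to a stop codon.

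Nuclear members are known as targets of NRF1, of the ETS factor GABP (its DNA-binding subunit is Gabpa) and of YY1. RefSeq promoters (GRCm38.p6, 250 bases before to 50 after the start) were matched for 72 of the 86 nuclear members. The NRF1 letters GCGCATGC, searched on both strands, occurred in 12 members (16.7%), against 3.05% of the 27025 genes with a promoter and 3.94% of the 17492 coding genes among them. The ETS letters CCGGAAG occurred in 18 members (25.0%), against 9.93% of all genes and 12.95% of coding genes. The YY1 letters AAGATGGC occurred in 11 (15.3%), against 3.19 and 3.57%. The ETS letters end in the AAG with which the YY1 letters begin, so these can share bases, and the NRF1 letters can overlap their own reverse complement. At least 1 of the 3 was found in 34 members, and 2 or more in Atp5j, Atp5k, Atp5l, Cox6a1, Ndufaf8, Sdhb and Uqcr11. For 3 of these 7 the last 100 bases before a start are shown with the matches in capitals. They are Atp5j (chr16:84834977-84835076, minus strand, YY1 then ETS letters), Sdhb (chr4:140961171-140961270, plus strand, NRF1 letters on the other strand) and Atp5k (chr5:108434400-108434499, minus strand, where NRF1 letters match on both strands and overlap).
Atp5j: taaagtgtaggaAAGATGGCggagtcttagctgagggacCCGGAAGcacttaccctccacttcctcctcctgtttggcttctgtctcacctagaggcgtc
Sdhb: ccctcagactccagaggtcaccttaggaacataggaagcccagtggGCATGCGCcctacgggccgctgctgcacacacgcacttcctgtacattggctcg
Atp5k: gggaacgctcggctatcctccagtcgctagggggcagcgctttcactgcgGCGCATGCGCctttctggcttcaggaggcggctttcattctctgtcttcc
A match of letters is a description and not a measured site. Gabpa itself overlaps Atp5j on the opposite strand, with 397 exon bases in common.

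The libraries held 16236644 to 19458346 fragments. Sp9, the targeted gene, had FPKM values from 17.3 to 20.1 in the controls and from 7.93 to 9.67 in the mutants (log2 fold change -1.08 ± 0.09 SE, limma adjusted p = 0.0567), and the groups did not overlap. On scaled counts its log2 fold change was -1.32 ± 0.11 (adjusted p = 0.00635), which passes the threshold. FPKM counts fragments relative to transcript length and to all mapped fragments of a library. It is meant for comparing levels of different genes, but the order of some members differed on scaled counts per kilobase. All 12 striatal projection neuron markers were detected, with summed FPKM of 1821 to 1898 in controls and 1688 to 1808 in mutants, so the groups did not overlap. The list was split, with 8 log2 fold changes below 0 and 4 above, from -0.42 to 0.73, and Drd1 was higher in every mutant. Choroid plexus markers, 1 of 8 at 0, summed to 1.85 to 2.90 in controls and 2.95 to 3.08 in mutants, at a low level and also without overlap. Only 2 of the 8 were high enough to test. They went opposite ways (log2 fold changes of -0.34 and 1.14), and of these only Ttr was higher in every mutant. Markers of cortical glutamatergic neurons summed to 9.31 to 26.1 in controls and 9.94 to 64.0 in mutants, and overlapped. The part of these markers in the results was not tested. The labels do not say that each library is a separate animal, so p-values measure only the spread between these libraries. Control replicate 2 was the highest of the 6 for 58.1% of nuclear members and control replicate 1 the lowest for 52.3%, against 17.3% and 18.3% of all genes tested. Results are given with this in view.

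Mitochondrially encoded messenger RNAs stood far above nuclear ones. Mean FPKM of the 13 ran from 1777 for mt-Nd5 to 42940 for mt-Atp8, with a median of 5244, and that of the 86 nuclear members from 1.53 for Ndufa4l2 to 735 for Atp5b, with a median of 101. Within a complex, mt-Co1, the catalytic subunit of complex IV, lay 21.3 times above its nuclear partner Cox4i1, mt-Cytb 57.7 times above Uqcrc1, mt-Nd1 125.5 times above Ndufs1 and mt-Atp6 7.14 times above Atp5b. The mitochondrial members made up 3.03, 3.20 and 3.07% of all scaled counts in controls and 2.91, 3.12 and 3.01% in mutants (3.10% ± 0.09 and 3.01% ± 0.11, SD, n = 3 each). Scaled counts are the deposited estimated fragment counts, multiplied by 1 factor per library. For the nuclear members the shares were 0.661, 0.744 and 0.690% in controls and 0.696, 0.716 and 0.683% in mutants (0.698% ± 0.042 and 0.698% ± 0.017). Neither share separated the groups. The largest FPKM, that of mt-Atp8, depends on how a very short transcript is scaled: per kilobase of exon it had 20450 scaled counts, against 111300 for mt-Co1, whose mean FPKM was 9489. By the same measure mt-Nd5, lowest of the 13 on FPKM, had 23080, against 9239 for mt-Nd3. Ndufa11 had 657 at a mean FPKM of 13.2, and Ndufab1 118 at 50.8. The 4 pairs above lay further apart by this measure. It gave mt-Co1 111300 against 2782 for Cox4i1, and mt-Cytb 72970 against 695 for Uqcrc1. For mt-Nd1 it gave 64690 against 229 for Ndufs1, and for mt-Atp6 47980 against 4296 for Atp5b. Rankings and ratios between genes are therefore given for FPKM only.

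**Figure D1:**
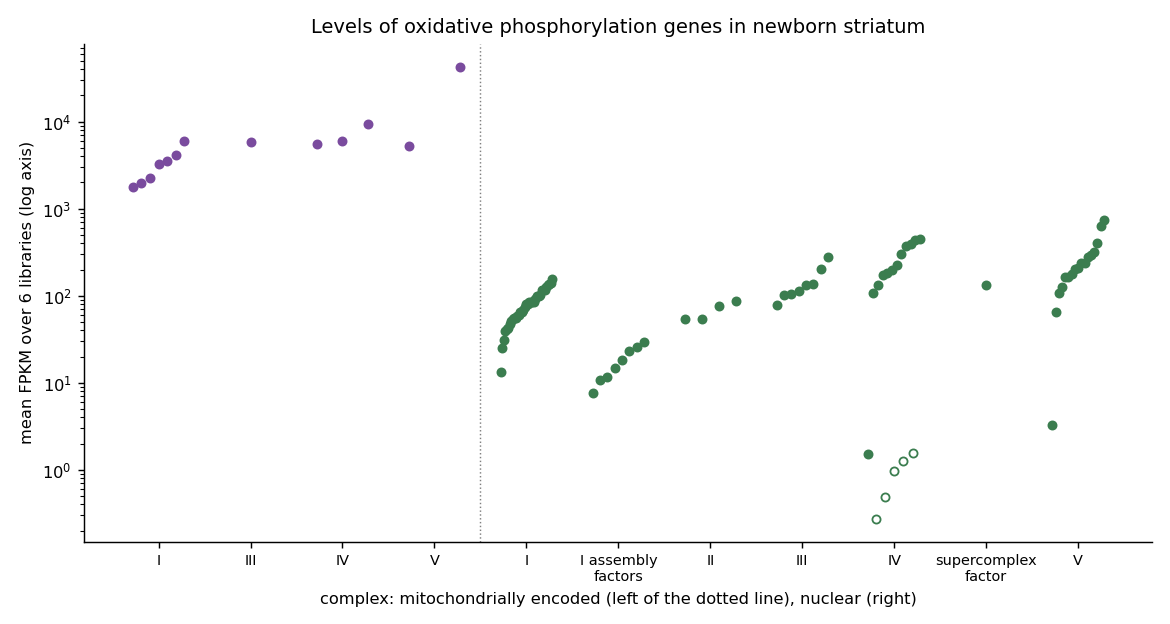
Mean FPKM over the 6 libraries (log axis) of members by complex, with the 13 mitochondrially encoded ones in purple left of the dotted line and nuclear ones in green to the right. Open circles are 5 complex IV isoforms under the count minimum, and every purple point lies above every green one.

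Complex I holds 7 of the mitochondrially encoded subunits, all in its membrane arm. The level of mt-Nd1, which lines the quinone site, was 5792, 6519 and 6142 FPKM in controls and 5781, 5955 and 5783 in mutants. That of mt-Nd2, a proton-pumping subunit, was 3554, 3865 and 3723 against 3273, 3532 and 3513. Every mutant lay below every control for mt-Nd2 on FPKM, but the groups overlapped on scaled counts. For mt-Nd4, another pumping subunit, values were 3311, 3471 and 3257 FPKM against 2999, 3362 and 3068, and mutant replicate 2 lay within the control range. Expression of mt-Nd4l, a small membrane subunit, was 4338, 4578 and 4361 FPKM in controls and 3600, 4112 and 4118 in mutants. It had the most negative fold change of the 13, with no overlap between groups (log2 fold change -0.17 ± 0.10 SE, limma adjusted p = 0.888). The largest of these 7 subunits, mt-Nd5, gave 1919, 1863 and 1838 FPKM in controls against 1597, 1803 and 1640 in mutants, again without overlap (-0.16 ± 0.07, adjusted p = 0.865). Levels of mt-Nd3 were 1883, 2152 and 2033 FPKM against 1869, 1988 and 1935. Those of mt-Nd6, read from the other strand, were 2388, 2292 and 2264 against 2134, 2340 and 1978. In both genes the groups overlapped.

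In complex III the mitochondrial member mt-Cytb, which carries the b-type hemes of this complex, had 6024, 6164 and 5878 FPKM in controls and 5504, 6047 and 5716 in mutants, with overlap. In complex IV mt-Co1 reached 9696, 10210 and 9743 FPKM in controls and 8806, 9363 and 9121 in mutants. All 3 mutants lay below the controls on FPKM and on scaled counts, by a log2 fold change of -0.12 ± 0.13 (SE, limma adjusted p = 0.921). The copper-binding subunit mt-Co2 had 5828, 6443 and 6101 FPKM against 5817, 6126 and 5905. For mt-Co3 the values were 5330, 5910 and 5675 against 5518, 5653 and 5564, the smallest difference of the 13 (log2 fold change -0.01). Both overlapped between groups. In complex V mt-Atp6, part of the proton channel, had 5117, 5610 and 5232 FPKM in controls and 5001, 5268 and 5236 in mutants. The values of mt-Atp8 were 39320, 46490 and 44110 against 39790, 43370 and 44570, so that both complex V members overlapped.

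**Figure D2:**
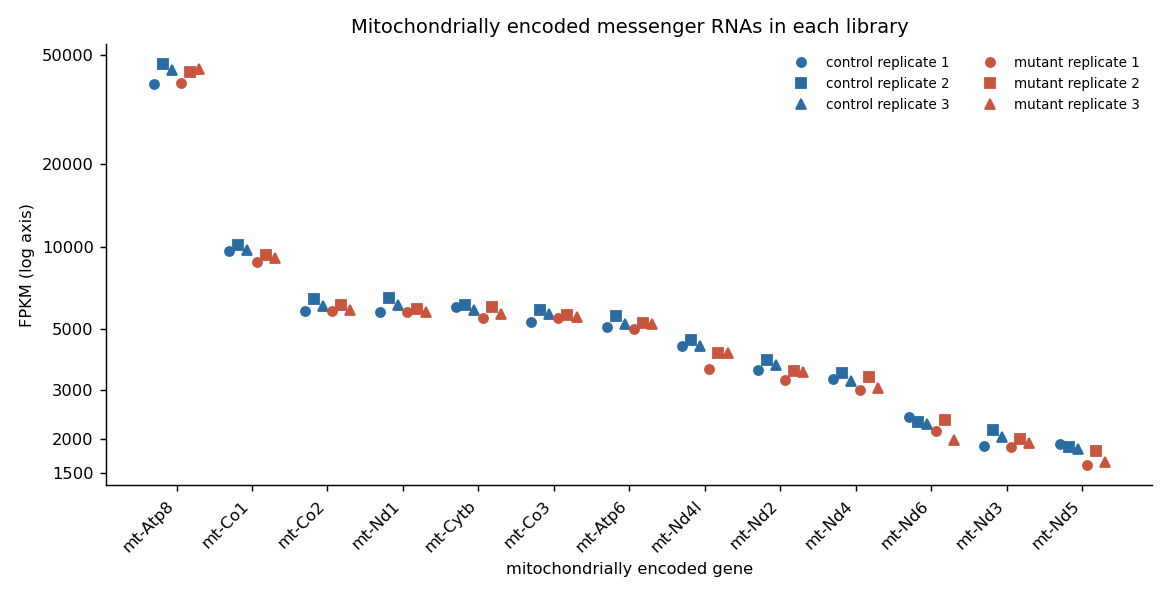
FPKM (log axis) of the 13 mitochondrially encoded members in each of the 6 libraries, ordered by mean level, with controls in blue and mutants in red and a marker shape for each replicate number. Control replicate 2 is the highest library for 11 of the 13 and mutant replicate 1 the lowest for 10, and only mt-Co1, mt-Nd4l, mt-Nd2 and mt-Nd5 have no overlap between groups.

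None of the 13 passed the threshold of an adjusted p under 0.05 over all genes tested (limma on log2(FPKM + 0.5)), which 10 of 16666 genes did (0.0600%), and none had an unadjusted p under 0.05, against 5.65% of genes. Their log2 fold changes were below 0 in 13 of 13, against 50.1% of genes, but in 12 on scaled counts, 11 with quantile normalization, 10 on scaled counts set to equal nuclear sums, 11 without control replicate 2 and 12 without mutant replicate 1. The values ran from -0.17 to -0.01 with a median of -0.07 (a difference of -4.96%), while the median of all genes was 0.00. A list outside the pathway had a similar tilt: of 87 cytosolic ribosomal protein genes 74 were below 0 on FPKM (median -0.06) and 78 on scaled counts (median -0.08), where the 13 had a median of -0.07. Other lists differed on FPKM. Below 0 were 18 of 25 genes of glycolysis and lactate and 12 of 19 of pyruvate dehydrogenase and the citrate cycle. Of 78 mitochondrial ribosomal proteins 39 were below 0, of 30 genes of mitochondrial DNA expression 15 and of 42 assembly factors 18. Of 16 biogenesis regulators 7 were, and of 22 other chain subunits and carriers 9. The 13 are not independent of one another, since they are cut from shared transcripts. With the groups apart, 4 of the 13 were lower in every mutant (mt-Co1, mt-Nd2, mt-Nd4l and mt-Nd5), against 6.05% of genes, and 0 were higher, against 5.33%. On scaled counts mt-Nd4l (log2 fold change -0.19) and mt-Nd5 (-0.13) had an unadjusted limma p under 0.05, which 6.42% of genes did. Their limma adjusted p values were 0.692 and 0.758. The 95% interval lay within a 1.5-fold change either way for 12 of the 13. The exception, mt-Atp8, had an interval of -0.79 to 0.74 on the log2 scale, although its 6 values differ less than that, because the fit takes part of its spread from other genes at the same level. This is not limited to mt-Atp8. The 13 had a smaller median within-group SD than the nuclear members (0.063 against 0.102, log2 FPKM) but a wider median interval half-width (0.244 against 0.187). On scaled counts the half-widths were 0.127 and 0.176. The FPKM fit was thus the less sensitive one for the 13. The ribosomal RNAs encoded beside them had log2 fold changes of -0.03 for mt-Rnr1 and -0.21 for mt-Rnr2 (adjusted p = 0.980 and 0.888). The summed striatal projection neuron markers were lower in every mutant library (1688 to 1808 FPKM against 1821 to 1898), although 4 of the 12 had log2 fold changes above 0. The part of these markers in the result was not tested. In bulk tissue, fewer cells of a type and less RNA per cell cannot be told apart.

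Nuclear complex I has 36 members, with mean FPKM from 13.2 for Ndufa11 to 156 for Ndufb9 and a median of 80.1. The most abundant, the accessory subunit Ndufb9, had 147.6, 172.2 and 153.5 FPKM in controls and 148.7, 171.1 and 143.7 in mutants. Ndufb8, another accessory subunit, had 142.0, 141.0 and 141.1 against 145.0, 149.5 and 126.1. Both overlapped between groups, and they share 201 and 134 exon bases with Gm49356 and Gm20538 on the same strand, so fragments of these may be counted for either. Ndufb2 gave 84.1, 94.1 and 94.4 FPKM in controls and 112.0, 113.1 and 99.0 in mutants, and every mutant was above every control. Its log2 fold change of 0.25 ± 0.07 (SE) had the smallest p of all 99 members (limma adjusted p = 0.793), while scaled counts overlapped between groups and gave 0.12. Exons of Ndufb2 share 145 bases with Gm42420 on the same strand and 146 bases with Braf on the other, and use of strand is not given in the sources used here. Ndufs5 had 78.8, 85.6 and 81.3 FPKM in controls and 86.5, 92.0 and 123.8 in mutants (0.28 ± 0.14, adjusted p = 0.884). Mutant replicate 3 alone was high for it, on scaled counts too (699 against 449 to 505), where the groups overlapped, and without that library the difference was 0.12. Of the catalytic core, Ndufv1 was lower in every mutant (-0.09), and the core subunit Ndufs1 stayed at 46.8 to 49.2 FPKM in all libraries.

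The third most abundant by mean FPKM, Ndufa3, owed its place to a lone value. It had 67.0, 76.3 and 71.8 FPKM in controls and 468.3, 77.0 and 61.2 in mutants. The same libraries had 377.1, 422.3 and 406.6 scaled counts in controls and 384.7, 410.2 and 359.6 in mutants. Mutant replicate 1 is thus high on FPKM and within the range of the others on scaled counts. FPKM per scaled count ran from 0.170 to 0.188 in 5 libraries and was 1.22 in mutant replicate 1, a spread of 7.16 times, and Ndufa3 is the only member for which it passes 1.5. Its log2 fold change of 0.86 on FPKM was -0.06 without that library and -0.06 on scaled counts.

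Of the 8 complex I assembly factors, which help build the complex without staying in it, mean FPKM ran from 7.69 for Ndufaf1 to 29.6 for Ndufaf2. All 3 mutants lay above the controls for Ndufaf6, at 8.98, 10.7 and 9.97 FPKM in controls against 13.2, 10.7 and 11.6 in mutants (log2 fold change 0.25 ± 0.10 SE, limma adjusted p = 0.858), though control and mutant replicate 2 differ by little. Its scaled counts overlapped between groups. Fold changes of the other 7 lay between -0.08 and 0.04.

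Complex II, succinate dehydrogenase, also acts in the citrate cycle. Sdha, its flavoprotein, had 84.9, 78.2 and 72.0 FPKM in controls and 72.6, 69.0 and 75.5 in mutants. Sdhb, the iron-sulfur subunit, had 80.1, 93.1 and 84.0 against 87.4, 91.4 and 86.0. These 2 catalytic subunits overlapped between groups on FPKM, but on scaled counts Sdha was lower in every mutant (-0.10, limma adjusted p = 0.775, with an unadjusted one under 0.05). The membrane anchors Sdhc and Sdhd stood at 55.0, 56.0 and 51.4 against 56.7, 60.4 and 48.2 FPKM, and at 49.8, 57.6 and 49.9 against 60.0, 55.2 and 53.6. Both overlapped, with log2 fold changes of 0.02 and 0.10.

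Among the 8 nuclear complex III members the hinge protein gene Uqcrh was highest, at 252.7, 301.1 and 285.7 FPKM in controls and 277.3, 276.2 and 277.6 in mutants. Uqcrb followed with 174.5, 211.5 and 208.9 against 201.3, 226.2 and 199.2. Neither separated the groups. Uqcr10 had 125.3, 129.3 and 129.8 FPKM in controls and 146.8, 144.1 and 131.7 in mutants, so all mutants lay above all controls (log2 fold change 0.14 ± 0.05 SE, limma adjusted p = 0.858). Uqcrc1, a core protein, went the other way, with 109.6, 102.8 and 106.1 FPKM in controls and 97.9, 101.0 and 94.8 in mutants (-0.12 ± 0.04, adjusted p = 0.858). The member with the most positive fold change here on FPKM, Uqcrq, had 80.4, 105.8 and 103.9 against 123.9, 117.9 and 95.3 and overlapped (0.22 ± 0.15, adjusted p = 0.888). On scaled counts its fold change was 0.09, and that of Uqcr10 was 0.10. Within 1 complex Uqcr10 and Uqcrc1 thus stood on opposite sides of 0, and neither passed the test.

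The 12 nuclear complex IV members had the highest median of any nuclear complex, 212 FPKM. Cox4i1, which is needed for assembly, had 423.7, 485.1 and 442.8 FPKM in controls and 457.7, 456.8 and 410.4 in mutants. For Cox6a1 the values were 389.8, 495.7 and 413.9 against 458.1, 440.5 and 409.4, and for Cox6c 346.8, 436.6 and 380.5 against 377.7, 412.1 and 372.7. All of these overlapped, and in each control replicate 2 was the highest and control replicate 1 among the lowest. The fold changes of the 12 lay between -0.03 and 0.09 on the log2 scale, the narrowest range of the nuclear complexes.

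Complex IV is also where nuclear subunits exist as tissue forms, and newborn striatum held the general forms. Cox4i1 lay 928 times above Cox4i2, the form known from lung, and Cox6a1 lay 1601 times above Cox6a2, the heart and muscle form. Cox6b1, at 330.0, 396.8 and 374.6 FPKM in controls and 373.9, 376.7 and 366.2 in mutants, lay 239.8 times above the testis form Cox6b2. Cox7a2 had 112.6, 149.3 and 133.8 FPKM against 132.9, 130.8 and 127.1, which is 136.8 times Cox7a1, the heart and muscle form. Its relative Cox7a2l, which joins complexes III and IV into supercomplexes, had 126.9, 147.9 and 132.7 against 132.5, 133.0 and 126.9. Cox8a was detected at 157.7, 194.5 and 154.5 FPKM in controls and 176.6, 187.9 and 170.5 in mutants, while Cox8b and Cox8c were listed at 0 in every library. Ndufa4, a subunit first placed in complex I and later in complex IV, had 179.8, 228.4 and 189.7 against 192.7, 200.6 and 202.3, or 130.2 times its relative Ndufa4l2 (1.42, 1.45 and 1.60 against 1.20, 1.62 and 1.89). None of these separated the groups. Ndufa4l2 is the lowest member inside the count minimum, and Cox6b2, with a mean of 7.94 scaled counts, is the highest of 7 genes outside it. The others are Cox4i2, Cox7a1, Cox6a2, Cox7b2, Cox8b and Cox8c. Cox7a1 had a mean of 2.58 scaled counts, with 0 in mutant replicate 1, and Cox6a2 a mean of 2.224. The ratios to Cox4i2, Cox6a2, Cox6b2 and Cox7a1 thus rest on few fragments and give a rough size only. All 99 members passed the filter of a mean FPKM of at least 0.5.

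In complex V, with 17 nuclear members, the catalytic beta subunit Atp5b had 702.3, 794.9 and 776.9 FPKM in controls and 708.1, 723.7 and 703.4 in mutants. Atp5mpl, a small membrane subunit, had 534.4, 748.9 and 648.7 against 623.4, 674.1 and 592.9. Atp5h, of the peripheral stalk, had 368.6, 414.5 and 403.3 against 419.0, 425.4 and 382.8. These 3 are among the most abundant nuclear members and each overlapped between groups. The c subunit of the proton-driven ring is the same mature protein made from 3 genes. Atp5g3 was the highest of them, at 320.2, 330.5 and 330.7 FPKM in controls and 313.2, 319.5 and 295.9 in mutants, with every mutant below every control (log2 fold change -0.08 ± 0.04 SE, limma adjusted p = 0.888). Atp5g2 had 164.1, 206.0 and 175.3 against 174.8, 172.6 and 180.2, and Atp5g1 154.2, 181.4 and 165.4 against 158.7, 165.0 and 153.8. Both overlapped. The lowest of the 17 by mean FPKM was Atp5s at 3.29, which is placed here by its name alone.

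**Figure D3:**
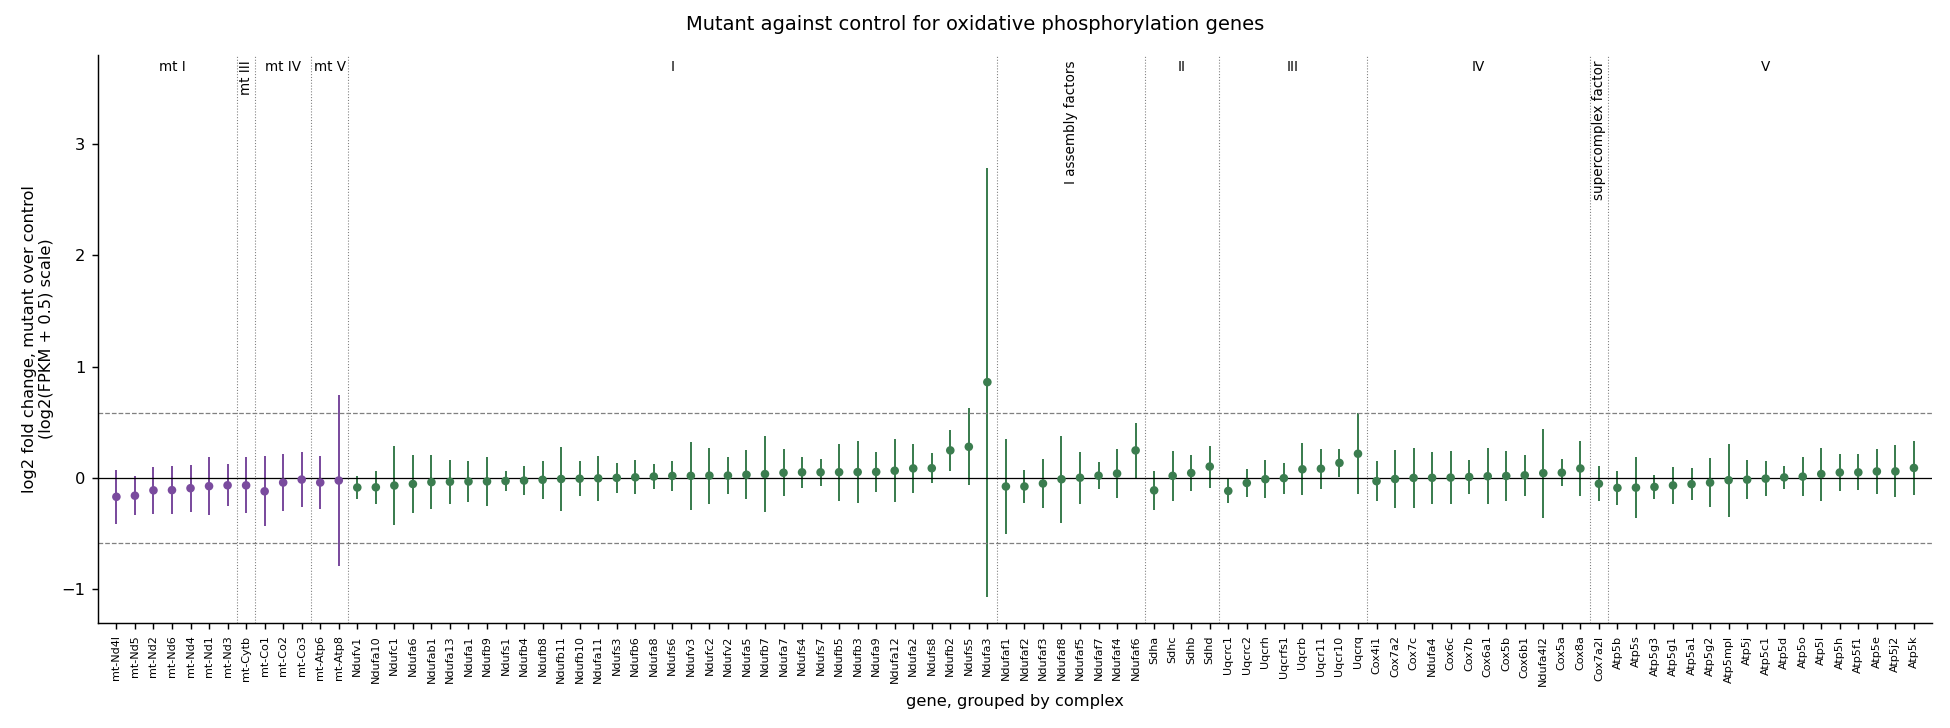
Log2 fold change of mutant over control on the log2(FPKM + 0.5) scale for members of each complex, with 95% intervals as vertical lines and dashed lines at a 1.5-fold change either way. All 13 mitochondrially encoded points (purple) lie below 0, nuclear points (green) lie on both sides, and the intervals of mt-Atp8, Ndufa3 and Ndufs5 cross a dashed line.

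Over all 86 nuclear members, 0 passed the adjusted threshold on FPKM and 0 did on scaled counts (where 0.143% of 16125 genes did). An unadjusted limma p under 0.05 was found for 3 of the 86, Ndufb2, Uqcr10 and Uqcrc1, which is no larger a share than the 5.65% of all genes. None met the study's rule of a fold of at least 2 with p up to 0.05, which 0.342% of genes did. The lowest adjusted p of any of the 99 members over all settings tried was 0.475. Log2 fold changes were below 0 for 36 and above 0 for 50, with a median of 0.01. The number below 0 was 19 without control replicate 2, 62 without control replicate 1 and 24 without mutant replicate 3. It was 51 on FPKM scaled to equal nuclear sums, 45 on scaled counts (median -0.006) and 29 on scaled counts set to equal nuclear sums. Every mutant lay below every control for 4 of the 86, among them Atp5g3, Ndufv1 and Uqcrc1, and above for 4, Ndufaf6, Ndufb2, Ndufs5 and Uqcr10. Both are near the shares over all genes. The 95% interval lay within a 1.5-fold change for 84 of 86, all but Ndufa3 and Ndufs5. By exon length, the median deviation in control replicate 1 was -0.134 for the shortest 29 genes, -0.109 for the middle 28 and -0.032 for the longest 29. The other libraries did not share this rise. In mutant replicate 1 the values were 0.028, 0.027 and 0.014, in mutant replicate 2 0.041, 0.036 and 0.024. In mutant replicate 3 they were -0.035, -0.059 and -0.077, so they fell with length in every mutant. Control replicate 2 had 0.104, 0.114 and 0.065, and control replicate 3 -0.021, -0.006 and -0.014. The median log2 fold change in the same order was 0.021, 0.002 and -0.015 on FPKM, and 0.005, -0.011 and -0.018 on scaled counts. The part of transcript length in the results was not tested.

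The nuclear members as a group spread more among the controls than between genotypes. Their median deviation from each gene's own mean (log2 FPKM) was -0.106, 0.092 and -0.013 in the 3 controls and 0.027, 0.039 and -0.055 in the 3 mutants. The 87 cytosolic ribosomal protein genes had -0.125 in control replicate 1 and 0.155 in control replicate 2, and the 78 mitochondrial ribosomal protein genes -0.060 and 0.065, while all genes tested had 0.005 and -0.010. The mitochondrially encoded members shared the high of control replicate 2 (0.099), stood at -0.007 in control replicate 1 and were lowest in mutant replicate 1 (-0.097).

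**Figure D4:**
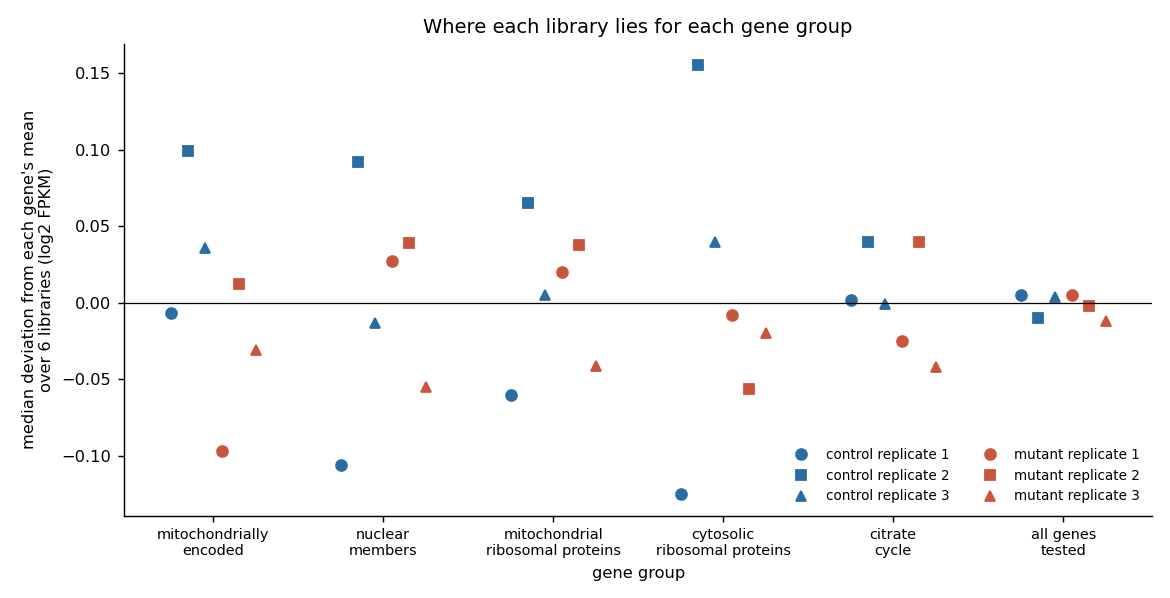
Median deviation of each gene group from each gene's mean over the 6 libraries, in log2 FPKM, with 1 point per library, controls in blue and mutants in red. Nuclear members and ribosomal protein genes are highest in control replicate 2 and lowest in control replicate 1, with the other libraries between them, and the median of all genes runs only from -0.012 to 0.005.

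The difference between the 2 genomes was then taken within each library, where the scaling of the library drops out. The mean log2 FPKM of the mitochondrially encoded members exceeded that of the nuclear members by 5.89, 5.80 and 5.84 in controls and by 5.65, 5.76 and 5.80 in mutants. The groups overlapped at 5.80, and the mean difference was -0.11. Leaving out Ndufa3, with its FPKM in mutant replicate 1, gave 5.886, 5.796 and 5.837 against 5.674, 5.757 and 5.794, a difference of -0.10, with the groups just apart. On scaled counts the groups overlapped with all members and without Ndufa3, with differences of -0.074 and -0.075. Within complex I the excess was 5.54, 5.43 and 5.50 in controls and 5.21, 5.40 and 5.40 in mutants, a difference of -0.15, or -0.13 without Ndufa3. All 3 mutants lay below all 3 controls for complex I, also on scaled counts (4.590, 4.474 and 4.558 against 4.372, 4.472 and 4.464), where control and mutant replicate 2 nearly met. In complexes III, IV and V the groups overlapped, with differences of -0.11, -0.08 and -0.03. These are scores over chosen genes and carry no p.

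**Figure D5:**
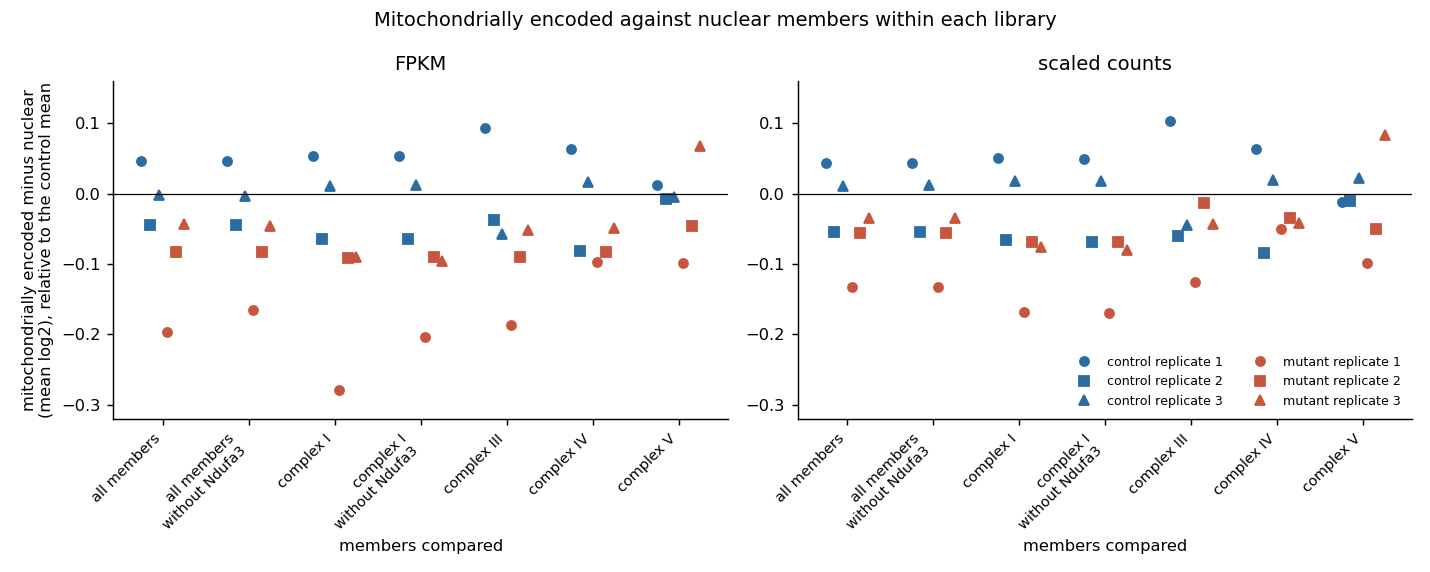
Mean log2 level of mitochondrially encoded minus nuclear members in each library, shown relative to the control mean, on FPKM (left) and scaled counts (right), for all members and by complex, with controls in blue and mutants in red. For complex I the 3 mutant points lie below the 3 control points in both panels, mutant replicate 1 being the lowest, and in complexes III, IV and V the groups overlap.

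Genes that serve the pathway without being members were counted from lists. On FPKM, 0 passed the adjusted limma threshold among 42 assembly factors, 30 genes of mitochondrial DNA expression, 16 biogenesis regulators, 22 other chain subunits and carriers, 78 mitochondrial ribosomal proteins, 19 genes of pyruvate dehydrogenase and the citrate cycle, 25 of glycolysis and lactate and 87 cytosolic ribosomal proteins. An unadjusted p under 0.05 was found for 2, 1, 0, 0, 1, 0, 1 and 4 of them in that order, against 5.65% of all genes, so that no list exceeded that share. The smallest was that of Fastkd1, a mitochondrial RNA-binding protein of the FASTK family, with 10.5, 10.5 and 9.76 FPKM in controls and 8.08, 8.12 and 7.67 in mutants. Its groups did not overlap (log2 fold change -0.35 ± 0.06 SE, limma adjusted p = 0.407). Eno1, a glycolytic enolase, had 65.7, 72.8 and 65.0 FPKM against 55.3, 58.2 and 59.9 (-0.23 ± 0.06, adjusted p = 0.756). Cmc2, linked to complex IV assembly, had 1.67, 2.38 and 2.15 against 3.52, 3.10 and 2.91 (0.53 ± 0.14, adjusted p = 0.763), and its scaled counts overlapped. For the complex III assembly factor Uqcc1 the log2 fold change was -0.28 (adjusted p = 0.858). Tfam, which packages and transcribes mitochondrial DNA, overlapped between groups at 17.2, 21.6 and 16.7 FPKM against 21.0, 21.8 and 19.8. The regulators whose motif letters were searched gave log2 fold changes of 0.09 for Gabpa, 0.02 for Nrf1 and 0.01 for Yy1, and the coactivator gene Ppargc1a gave 0.01. Cyc1, the complex III subunit that the naming rule does not take, stood at 94.9, 105.0 and 105.7 FPKM against 100.6, 102.6 and 93.3.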

How the data were processed

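Total RNA from 6 libraries was sequenced. The authors deposited 1 table with an FPKM column and a count column per library, per the file headers. TopHat, Cufflinks 2.1.1 and GRCm38.p4 are listed per the submitters' processing notes. No source used here gives the strand setting or how multiply mapped reads were treated. Reads may therefore be split with 11 processed pseudogene rows of the same names (the highest is Ndufb4c, mean 49.9 scaled counts), with overlapping genes or with nuclear copies of mitochondrial DNA. The deposited count columns are a signal and not whole counts: 98.7 to 98.9% of low values lie within 0.1 of a whole multiple of 1 step per library, and totals divided by the step give the fragments per library. No count test was run.

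Symbols and exons came from GENCODE M21 (46569 of 47062 identifiers matched). The 6 libraries were compared on the log2(FPKM + 0.5) scale with limma 3.58.1 (R 4.3.3), using a variance trend and no covariate. The 16666 genes whose mean FPKM reached 0.5 were tested, two-sided, with Benjamini-Hochberg adjustment and a threshold of 0.05. Fold changes on this scale are understated for low genes. Scaled counts were fitted as log2(value + 1). On simulated data with changed genes (16563 genes), the FPKM steps recovered 60.6% of 1.5-fold, 78.1% of 2-fold and 90.9% of 3-fold changes for mutant against control. The simulation gave all genes the same spread beyond counting noise and each gene a fixed FPKM per scaled count. It left out differences in spread between genes and FPKM values such as that of Ndufa3, so these shares may not hold for the real data. Members and lists were chosen with earlier results of these data known. Values per library are given for every mitochondrially encoded member, the Sdh genes, the 3 most abundant nuclear members of each complex, isoform pairs and members with an unadjusted p under 0.05; from the other lists, genes with the smallest p. Outside this rule, Ndufs5, Ndufaf6, Uqcrq, Ndufs1, Ndufv1, Tfam, Cyc1 and the regulators were chosen once their values were known. Deviations of same-numbered libraries from their group means had correlations of 0.00 to 0.04. With 3 libraries a group these cannot exclude that the numbers pair litters or batches. Pairing is thus unknown, and the main fit used none. Alternatives were pseudocounts of 0.1 and 1, other filters and scalings, quantile normalization, robust limma, scaled counts, a replicate block and each library left out. Some members were counted but are not reported by name here or drawn.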

Additional observations from a re-analysis of the deposited data

How the results depend on the processing

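Over 17 alternatives, 0 mitochondrially encoded and 0 nuclear members passed the threshold in any of them. Genes past it over the whole table numbered 10 as reported, 23 on scaled counts and 26 on scaled counts set to equal nuclear sums, an alternative chosen after seeing the data, as was not counting mt-Cytb. With each library left out the number ran from 12 to 21 (16 without control replicate 1, 20 without control replicate 3, 18 without mutant replicate 2, 21 without mutant replicate 3). With the replicate number as a block it was 5, and the block changed no call of a member, but the numbers share no stated litter or batch.

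The median log2 fold change of the mitochondrially encoded members was -0.073 as reported, -0.102 to -0.049 with each library left out and -0.176 with quantile normalization. That of mitochondrially encoded minus nuclear members was -0.081, -0.110 to -0.059 and -0.183 in the same order, and that of nuclear members 0.008 and -0.036 to 0.061 with each library left out. Of 323 values for 19 named members under the alternatives, 12 changed sign. With quantile normalization mt-Co1 was at 0.026 and mt-Atp8 at 0.600. On scaled counts mt-Co3 was at 0.006 and Ndufa3 at -0.063, and with equal nuclear sums mt-Co2 was at 0.002, mt-Co3 at 0.031, mt-Atp6 at 0.008 and Ndufa3 at -0.038. With each library left out, mt-Co3 ran from -0.054 to 0.020 (without control replicate 2), mt-Atp8 from -0.091 to 0.030 (without control replicate 2, and 0.025 without mutant replicate 1) and Ndufa3 from -0.060 (without mutant replicate 1) to 1.403. The cause was not tested. With 3 libraries a group, differences of the size seen here, mostly under 0.2 on the log2 scale, did not reach the threshold. The depth behind the mitochondrially encoded members was at least 2993 scaled counts in any library (mt-Nd3), while Ndufa4l2, the lowest nuclear member, rests on a mean of 25.0.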
